A study of Homo sapiens with 12 samples.

Results

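The 42 genes described here belong to glycolysis and to the transcriptional response to low oxygen that is driven by hypoxia-inducible factor (HIF). They were chosen by gene symbol from 58288 genes, with earlier results of these data known, and every symbol matched 1 gene ID. By role they comprise 6 oxygen-sensing genes, 12 HIF targets outside glycolysis, 7 genes for transport and for the regulation of flux, and 17 glycolytic enzymes. They were measured in HEK-293T, an established line from human embryonic kidney, by sequencing of enriched mRNA. The nuclease-SMARCA4 group held the effector labelled CIRTS-12 Nuclease with a guide RNA against SMARCA4, and the nuclease-NT group held the same effector with a non-targeting guide. The YTHDF2-SMARCA4 and YTHDF2-NT groups held the effector labelled CIRTS-3 YTHDF2 with those guides. CIRTS effectors are RNA-binding fusion proteins put together from human protein domains and directed by a guide RNA, and SMARCA4 encodes an ATPase of the BAF chromatin remodelling complex. Each group had 3 libraries. No group lacked an effector, and the labels give no oxygen level, cell density, medium or culture batch, so the p-values below measure the spread between these libraries only. In bulk RNA, fewer cells that express a gene and less of its RNA per cell cannot be told apart.

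HIF is a pair of proteins, an oxygen-labile alpha subunit (HIF1A or EPAS1) and a stable beta subunit. When oxygen is plentiful, the EGLN prolyl hydroxylases mark the alpha subunit and the VHL ubiquitin ligase has it degraded, so that HIF is controlled mostly at the protein and much less at the mRNA. When oxygen runs low, HIF binds the core sequence RCGTG beside its targets and raises glucose uptake, most glycolytic enzymes, the lactate-forming enzyme LDHA, and the kinases that keep pyruvate out of mitochondria. It also raises genes with no part in glycolysis, among them NDRG1, BNIP3 and BHLHE40. Glycolytic enzymes are abundant in all growing cultured cells and answer to other factors besides HIF, whereas the targets outside glycolysis share HIF but not the pathway.

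The HIF core sequence can be seen in a promoter of several of the genes. The stretches shown are from RefSeq (GRCh38.p14) and lie within the 250 bases before a transcription start, cut where an annotated exon of GENCODE release 29 begins. Where a gene had several such windows, the one with the most ACGTG matches is shown. MXI1 had 3 windows and LDHA 2, and ACGTG occurred only in the window shown. Capitals mark ACGTG and its reverse complement CACGT, and the palindrome CACGTG holds both, overlapping by 4 bases. PGK1, LDHA and HK2 encode glycolytic enzymes, BNIP3 and MXI1 are HIF targets outside glycolysis, and HIF1A is shown for comparison because its stretch held no ACGTG. The other form of the core, GCGTG or CACGC, is not marked: it occurred 1 time in the PGK1, MXI1 and HIF1A stretches each, 2 times in HK2, 4 times in BNIP3 and 0 times in LDHA.
PGK1, chrX:78103998-78104173 (plus strand): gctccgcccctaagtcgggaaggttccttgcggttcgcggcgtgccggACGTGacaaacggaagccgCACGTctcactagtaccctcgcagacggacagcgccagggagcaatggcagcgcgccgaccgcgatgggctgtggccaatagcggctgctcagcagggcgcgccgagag
LDHA, chr11:18394313-18394387 (plus strand): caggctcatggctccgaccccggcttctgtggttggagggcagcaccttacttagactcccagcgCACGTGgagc
HK2, chr2:74834920-74835169 (plus strand): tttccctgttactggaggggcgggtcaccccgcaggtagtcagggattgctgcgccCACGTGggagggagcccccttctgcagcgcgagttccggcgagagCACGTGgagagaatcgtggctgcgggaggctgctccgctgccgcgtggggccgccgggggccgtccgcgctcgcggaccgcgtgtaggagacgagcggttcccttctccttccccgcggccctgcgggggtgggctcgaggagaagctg
BNIP3, chr10:131982014-131982173 (minus strand): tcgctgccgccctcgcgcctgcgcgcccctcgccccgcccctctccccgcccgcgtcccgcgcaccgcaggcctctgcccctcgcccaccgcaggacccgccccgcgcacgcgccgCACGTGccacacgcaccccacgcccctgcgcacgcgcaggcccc
MXI1, chr10:110209981-110210230 (plus strand): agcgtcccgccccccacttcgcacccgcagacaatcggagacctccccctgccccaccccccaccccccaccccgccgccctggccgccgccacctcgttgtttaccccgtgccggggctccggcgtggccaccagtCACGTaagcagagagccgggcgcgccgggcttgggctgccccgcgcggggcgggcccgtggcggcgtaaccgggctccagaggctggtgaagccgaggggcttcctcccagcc
HIF1A, chr14:61695263-61695512 (plus strand): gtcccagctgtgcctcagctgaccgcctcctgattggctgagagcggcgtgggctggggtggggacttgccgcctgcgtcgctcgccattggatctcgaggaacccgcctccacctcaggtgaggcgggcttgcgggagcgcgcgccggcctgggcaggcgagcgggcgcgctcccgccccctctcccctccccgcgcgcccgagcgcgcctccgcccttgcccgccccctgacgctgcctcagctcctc
Positions are counted from -1 at the base before the start. In the stretches shown, the ACGTG matches began at -202 and -183 for PGK1, at -185 for LDHA and at -194 and -149 for HK2. They began at -134 for BNIP3 and at -113 for MXI1. With ACGTG and CACGT counted separately, the uncut LDHA window held 5 matches, against 2 in the stretch shown. The HK2 window not shown held 2. RefSeq promoters were found for 37 of the 42 genes, and not for NDRG1, SLC2A3, VEGFA, VHL and BNIP3L. ACGTG, on either strand within 250 bases before a start, was present for 23 of the 37 (62.2%), against 21.7% of 27305 genes in the table. By role it was present for 2 of 5 oxygen-sensing genes, 6 of 9 HIF targets outside glycolysis, 4 of 6 transport and flux genes and 11 of 17 enzymes. The other core, GCGTG or CACGC, was present for 19 of the 37 genes (51.4%), against 36.2% of all genes. The 37 genes had 68 promoter windows between them, of which 38.2% held ACGTG, against 18.5% of all 35116 windows. For GCGTG or CACGC the shares of windows were close, at 33.8% against 32.2%. The windows of the 37 genes were also richer in G and C, at a median of 68.4% against 58.0% for all windows. The part of that difference in the share with a match was not tested.

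The 12 libraries held between 9207196 and 18047859 estimated counts, of which the 42 genes took between 1.455% and 1.973%. Levels are given as depth-scaled counts with TMM library sizes (CPM), or as depth- and length-scaled values (TPM) where genes are compared with each other. All 10 HEK-293T markers were detected, from PAX2 (1.36 to 4.02 CPM) and LHX1 (4.09 to 7.84 CPM) to VIM (629 to 769 CPM). They summed to 1310 to 1410 CPM in nuclease-SMARCA4 libraries and 1170 to 1220 CPM in nuclease-NT libraries, and to 1190 to 1360 CPM in YTHDF2-SMARCA4 libraries and 1220 to 1460 CPM in YTHDF2-NT libraries. The 8 fibroblast markers summed to between 12.1 and 17.2 CPM, while 4 endothelial markers summed to at most 0.884 CPM and 6 blood markers to at most 3.81 CPM with HBB at 0. SMARCA4 itself was at 239, 250 and 219.6 CPM in nuclease-SMARCA4 libraries, against 225, 245 and 242 CPM in nuclease-NT libraries. With YTHDF2 it was at 243, 210.2 and 221 CPM in YTHDF2-SMARCA4 libraries, against 302, 235 and 250.2 CPM in YTHDF2-NT libraries. Neither guide comparison of SMARCA4 passed the test (adjusted p = 0.985 and 0.703 by edgeR's quasi-likelihood test), so its mRNA gave no check of the guide labels. YTHDF2 counts, which include the effector's coding sequence, lay between 4824 and 8024 CPM in the YTHDF2 libraries and between 214.8 and 283.6 CPM in the nuclease libraries. Firefly luciferase was at 1812, 2478 and 3021 CPM in nuclease-SMARCA4 libraries, against 3410, 4171 and 4397 CPM in nuclease-NT libraries, and at 2996, 3764 and 3714 CPM in YTHDF2-SMARCA4 libraries, against 4465, 3169 and 5092 CPM in YTHDF2-NT libraries. Across 16297 genes, the deviation from the mean went down with transcript length in YTHDF2-NT 1 and up with it in YTHDF2-NT 2 (Spearman rho -0.51 and 0.44, against -0.26 to 0.28 in the other 10 libraries).

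Expressed per length, the glycolytic chain ran over a wide range of levels. GAPDH, the dehydrogenase in the middle of the pathway, averaged 2929 ± 203 TPM in nuclease-SMARCA4 libraries and 2566 ± 48.4 TPM in nuclease-NT libraries (SD, n = 3 each). LDHB, ENO1, PGK1, ALDOA, LDHA, TPI1 and PKM followed it, with means over the 12 libraries between 1010 and 1800 TPM, and PGAM1 and GPI came next. The steps that commit glucose were far lower, with HK1, PFKM, PFKL and PFKP between 38.9 and 45.9 TPM and HK2 at 13.3 TPM. Of the targets outside glycolysis, NDRG1 (57.7 TPM) and BNIP3 (46.9 TPM) were highest. The carbonic anhydrase gene CA9, among the most oxygen-dependent HIF targets in many tumour lines, was at 0 CPM in 9 of the 12 libraries and at most 0.2754 CPM, and it was too low to test. SLC16A3, the lactate exporter, was the lowest tested gene, at a mean of 0.307 TPM.

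With the SMARCA4 guide most of the genes were higher than with the non-targeting guide, and no single gene passed edgeR's adjusted test across the 12 libraries. In the nuclease guide comparison 37 of the 41 tested genes had a higher mean (49.9% of all 16297 genes did), with a median log2 fold change of 0.28 against 0 for all genes. In the YTHDF2 guide comparison 30 of the 41 did (48.2% of all genes), with a median of 0.12 against -0.01. Averaged over both effectors 38 of the 41 did (47.3% of all genes), with a median of 0.18 against -0.01. By edgeR's quasi-likelihood test with Benjamini-Hochberg adjustment over all 16297 genes, 0 of the 41 genes passed in the nuclease comparison (0.00614% of all genes passed), 0 in the YTHDF2 comparison (0% of all genes) and 0 in the average (0%). At an unadjusted p below 0.05, 21 of the 41 were higher with the nuclease (4.71% of all genes), 11 with YTHDF2 (2.44%) and 20 in the average (3.07%), and 0 were lower with the nuclease (6.23%), with YTHDF2 (4.39%) or in the average (4.84%). The 3 libraries of each group did not overlap for 20 genes that were higher with the nuclease guide against SMARCA4 (12.8% of all genes) and for 11 with YTHDF2 (4.29%). They did not overlap for 0 genes that were lower with the nuclease (12.2%) and for 0 with YTHDF2 (4.98%). The smallest adjusted p was 0.19 with the nuclease, 0.703 with YTHDF2 and 0.515 in the average (edgeR). DESeq2 passed 3 of the 41 with the nuclease (NDRG1, PFKP and PGK1), 0 with YTHDF2 and 2 in the average (NDRG1 and PGK1), all higher. Of all 16297 genes it passed 142 with the nuclease (32 higher, 110 lower), 3 with YTHDF2 and 19 in the average (6 higher, 13 lower). Limma-voom passed 0 of the 41 in each.

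The count of passing genes depended on which libraries were in the fit. Leaving out a library of a compared group changes that group's mean as well as the spread. Without YTHDF2-NT 2, 5 of the 41 passed in the YTHDF2 guide comparison by edgeR, of which HIF1A, VHL, KDM3A and PDK1 rose and EGLN2 fell. In that fit 1585 of all genes passed, where 16297 were tested with all 12 libraries. The share of the 41 was close to that of all genes, so these calls are not particular to the 41. The nuclease libraries varied less, with a biological coefficient of variation of 6.76%, against 14.4% among the YTHDF2 libraries and 11.4% over all 12. When the 6 nuclease libraries were fitted by themselves, 11 of the 41 genes rose with the SMARCA4 guide (edgeR's quasi-likelihood test; 3.57% of 15426 genes passed in either direction), and none fell. They were NDRG1, the transporter SLC2A3, the flux regulator PFKFB4, and the enzymes PFKP, ALDOA, TPI1, GAPDH, PGK1, ENO1, ENO2 and LDHA. When nuclease-SMARCA4 1 was left out of that fit, NDRG1 alone of the 11 still passed (log2 fold change 0.72, adjusted p = 0.00234, edgeR), where 0.0255% of all genes passed. The other 10 stayed higher, with log2 fold changes from 0.20 (ENO1) to 0.50 (SLC2A3) and adjusted p values from 0.0604 (PGK1) to 0.129 (ENO2) by edgeR: GAPDH had 0.28 without that library and 0.31 with it, and PFKFB4 0.44 and 0.69. That library was also the lowest of the 12 in firefly luciferase, whose part in these differences was not tested.

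**Figure D1:**
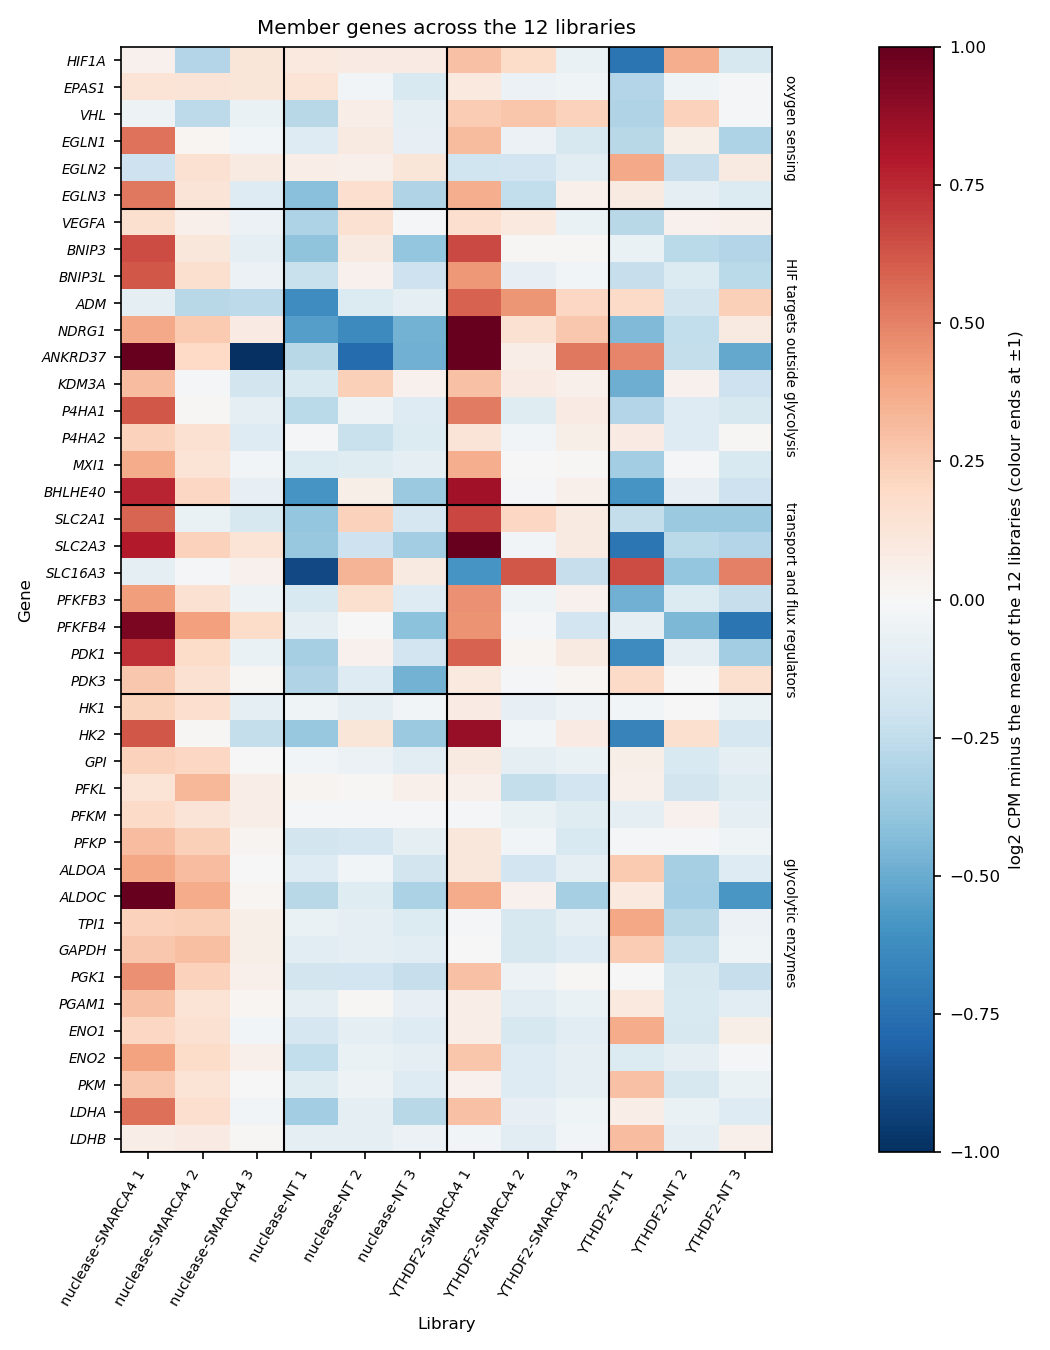
Level of the 41 tested genes (rows, by role) in each of the 12 libraries (columns), as log2 CPM minus the gene's mean over the 12 libraries; red is above the mean and blue below, with the colour ending at 1 and -1. The first columns of both SMARCA4-guide groups are red for most HIF targets outside glycolysis and most transport genes, while the enzymes are red in nuclease-SMARCA4 1 and 2.

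Of the 6 oxygen-sensing genes, 3 had a higher mean with the nuclease (median log2 fold change 0.05) and 5 with YTHDF2 (median 0.16), and the groups overlapped for all 6 in both comparisons. HIF1A, the main alpha subunit, was at 81.4, 64.9 and 86.4 CPM in nuclease-SMARCA4 libraries, against 84.9, 83.97 and 83.9 CPM in nuclease-NT libraries. It was at 97.3, 90.05 and 75.6 CPM in YTHDF2-SMARCA4 libraries, against 48.01, 102 and 70.9 CPM in YTHDF2-NT libraries. YTHDF2-NT 1 and 2 held the lowest and the highest value of all 12 libraries. EPAS1, the other alpha subunit, was at 16.1, 15.99 and 15.98 CPM in nuclease-SMARCA4 libraries, against 16.2, 14.3 and 13.2 CPM in nuclease-NT libraries. With YTHDF2 it was at 15.65, 14.03 and 14.2 CPM in YTHDF2-SMARCA4 libraries, against 12, 14.2 and 14.5 CPM in YTHDF2-NT libraries. Per length HIF1A supplied most of the alpha-subunit mRNA, between 83.6% and 92.2% of the sum in each of the 12 libraries.

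VHL, the substrate-binding part of the ubiquitin ligase, was at 76.6, 65.9 and 75.1 CPM in nuclease-SMARCA4 libraries, against 65.05, 82.9 and 74.4 CPM in nuclease-NT libraries. It was at 94.01, 95.7 and 92.7 CPM in YTHDF2-SMARCA4 libraries, against 64.2, 92.98 and 78.3 CPM in YTHDF2-NT libraries. The 3 YTHDF2-SMARCA4 libraries were close together, with YTHDF2-NT 2 just inside their range and all nuclease libraries below it. Among the hydroxylases, EGLN1, the main one in most cells, was at 166, 116 and 112 CPM in nuclease-SMARCA4 libraries, against 104, 121 and 108 CPM in nuclease-NT libraries. It was at 142, 109 and 102 CPM in YTHDF2-SMARCA4 libraries, against 93.85, 119 and 92.05 CPM in YTHDF2-NT libraries. In both comparisons the library numbered 1 of the SMARCA4 guide stood above the rest and the groups overlapped. EGLN3, a hydroxylase that HIF itself induces, was at 25.2, 19.1 and 15.9 CPM in nuclease-SMARCA4 libraries, against 12.98, 19.6 and 14.1 CPM in nuclease-NT libraries. With YTHDF2 it was at 22.3, 14.6 and 17.95 CPM in YTHDF2-SMARCA4 libraries, against 18.6, 16.3 and 15.8 CPM in YTHDF2-NT libraries. Library 1 of the SMARCA4 guide was again the highest of each effector, and the groups overlapped. EGLN2, which HIF does not induce in most cells, was the one oxygen-sensing gene with a lower average, at 33.25, 42.8 and 40.97 CPM in nuclease-SMARCA4 libraries, against 40.6, 40.01 and 41.9 CPM in nuclease-NT libraries. It was at 33.5, 33.8 and 35.6 CPM in YTHDF2-SMARCA4 libraries, against 50.1, 32.9 and 41.1 CPM in YTHDF2-NT libraries. Over both effectors the log2 fold changes were 0.22 ± 0.11 (SE) for EGLN1, -0.17 ± 0.09 for EGLN2 and 0.24 ± 0.14 for EGLN3, with adjusted p values of 0.662, 0.703 and 0.727 by edgeR.

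Of the HIF targets outside glycolysis, NDRG1 had the smallest unadjusted p in the average guide effect. NDRG1, a growth and stress gene that low oxygen raises in many human cell lines, was at 116.5, 107 and 94.8 CPM in nuclease-SMARCA4 libraries, against 61.4, 57.5 and 64.95 CPM in nuclease-NT libraries. It was at 196, 99.3 and 108 CPM in YTHDF2-SMARCA4 libraries, against 66.3, 75.2 and 95.2 CPM in YTHDF2-NT libraries. The groups did not overlap in either comparison, although YTHDF2-NT 3 lay just under YTHDF2-SMARCA4 2. The log2 fold change was 0.79 ± 0.21 (SE) with the nuclease and 0.77 ± 0.21 with YTHDF2, and the adjusted p was 0.217 and 0.703 by edgeR. Averaged over both it was 0.78 ± 0.15, a 1.72-fold higher level, at an adjusted p of 0.515 by edgeR and with the smallest unadjusted p of all 41 genes. The exact permutation p of each comparison was 0.1, the smallest that 3 against 3 can give.

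BHLHE40, a circadian repressor that HIF induces, was at 123, 83.97 and 68.6 CPM in nuclease-SMARCA4 libraries, against 48.2, 75.3 and 56.1 CPM in nuclease-NT libraries. It was at 129, 71.6 and 74.7 CPM in YTHDF2-SMARCA4 libraries, against 48.2, 68.6 and 62.5 CPM in YTHDF2-NT libraries. The groups overlapped with the nuclease and not with YTHDF2, and in both effectors SMARCA4-guide library 1 was far above libraries 2 and 3. MXI1, which opposes MYC, was at 57.8, 49.2 and 44.05 CPM in nuclease-SMARCA4 libraries, against 40.7, 41.4 and 42.04 CPM in nuclease-NT libraries. It was at 57.7, 44.95 and 45.3 CPM in YTHDF2-SMARCA4 libraries, against 35.04, 44.6 and 40.4 CPM in YTHDF2-NT libraries. Its groups did not overlap in either comparison, but libraries 2 and 3 of YTHDF2-SMARCA4 exceeded YTHDF2-NT 2 by less than 1 CPM. The mitophagy receptor BNIP3 was at 154, 106 and 91.3 CPM in nuclease-SMARCA4 libraries, against 74.3, 104 and 74.8 CPM in nuclease-NT libraries. It was at 155, 98.8 and 98.7 CPM in YTHDF2-SMARCA4 libraries, against 93.2, 81.1 and 80.2 CPM in YTHDF2-NT libraries. Here too library 1 of the SMARCA4 guide was highest with each effector, and the groups overlapped with the nuclease alone. Over both effectors the log2 fold changes were 0.62 ± 0.18 (SE) for BHLHE40, 0.29 ± 0.09 for MXI1 and 0.47 ± 0.15 for BNIP3, with adjusted p values of 0.515, 0.515 and 0.522 by edgeR. The 38 pseudogenes named after BNIP3 held counts equal to 12.2% of BNIP3's, so some reads may be shared with them.

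VEGFA, the growth factor for blood vessels, differed little, at 40.5, 37.6 and 34.9 CPM in nuclease-SMARCA4 libraries, against 29.2, 40.3 and 35.8 CPM in nuclease-NT libraries. With YTHDF2 it was at 40.9, 38.9 and 34.5 CPM in YTHDF2-SMARCA4 libraries, against 29.8, 37.2 and 37.6 CPM in YTHDF2-NT libraries. The groups overlapped, and the average log2 fold change was 0.11 ± 0.09 (SE). CA9 had counts in 1 library of nuclease-SMARCA4, nuclease-NT and YTHDF2-SMARCA4 each and in none of YTHDF2-NT. Of the other 6 tested targets, BNIP3L, a mitophagy receptor related to BNIP3, P4HA1 and P4HA2, collagen prolyl hydroxylases, KDM3A, a histone demethylase, ADM, the peptide hormone adrenomedullin, and ANKRD37 had average log2 fold changes between 0.14 and 0.77. ANKRD37 rested on few reads, at 0.9736 to 5.542 CPM. In all, 10 of 11 tested targets had a higher mean with the nuclease (median log2 fold change 0.36) and 11 of 11 with YTHDF2 (median 0.35).

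**Figure D2:**
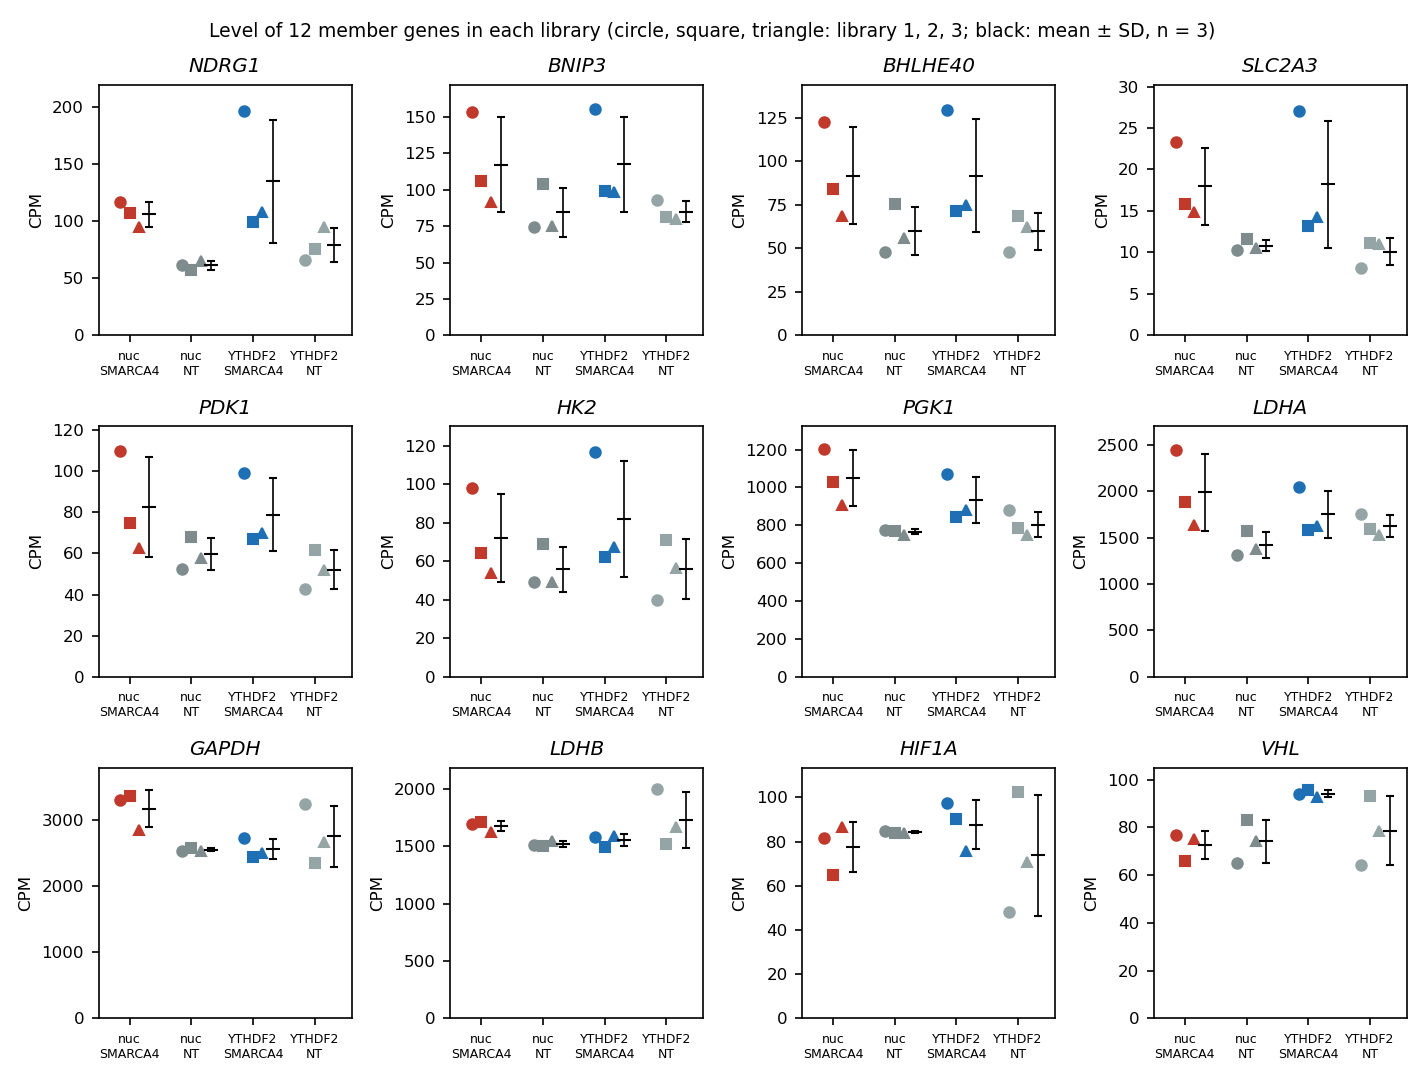
CPM of 12 of the genes in each library, with libraries 1, 2 and 3 of a group as circle, square and triangle and the mean ± SD (n = 3) in black; each axis starts at 0. For BNIP3, BHLHE40, SLC2A3, PDK1, HK2, PGK1 and LDHA the circle of both SMARCA4-guide groups is the highest point of its effector, and for NDRG1 every SMARCA4-guide point lies above every NT-guide point of the same effector.

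Genes for glucose uptake and for the control of flux gave the highest medians of the 4 roles, 0.43 with the nuclease (7 of 7 higher) and 0.51 with YTHDF2 (5 of 7 higher). The high-affinity glucose transporter SLC2A3 was at 23.3, 15.8 and 14.85 CPM in nuclease-SMARCA4 libraries, against 10.3, 11.6 and 10.5 CPM in nuclease-NT libraries. It was at 27.1, 13.2 and 14.3 CPM in YTHDF2-SMARCA4 libraries, against 8.16, 11.1 and 11.03 CPM in YTHDF2-NT libraries. The groups did not overlap in either comparison, and the average log2 fold change was 0.78 ± 0.18 (SE), with an adjusted p of 0.515 by edgeR. SLC2A1, the more abundant basal transporter, was at 71.2, 45.2 and 42.7 CPM in nuclease-SMARCA4 libraries, against 36.3, 55.8 and 42.25 CPM in nuclease-NT libraries. It was at 75.8, 55.03 and 50.7 CPM in YTHDF2-SMARCA4 libraries, against 40.2, 36.7 and 36.9 CPM in YTHDF2-NT libraries. The groups overlapped with the nuclease and not with YTHDF2. The share of SLC2A3 in the TPM of both transporters was 18.6 ± 1.52% in nuclease-SMARCA4 libraries and 14.9 ± 1.62% in nuclease-NT libraries, and 17.7 ± 1.31% in YTHDF2-SMARCA4 libraries and 14.1 ± 2.82% in YTHDF2-NT libraries (SD, n = 3 each). Its ranges did not overlap between guides with either effector (17.3 to 20.3% against 13.1 to 16.1%, and 16.2 to 18.5% against 10.9 to 16.1%).

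PFKFB4, a bifunctional enzyme that sets the level of the phosphofructokinase activator fructose 2,6-bisphosphate, was at 30.7, 21.1 and 18.01 CPM in nuclease-SMARCA4 libraries, against 14.8, 15.96 and 11.98 CPM in nuclease-NT libraries. It was at 21.8, 15.8 and 13.99 CPM in YTHDF2-SMARCA4 libraries, against 14.96, 11.6 and 9.60 CPM in YTHDF2-NT libraries. The nuclease groups did not overlap, and the YTHDF2 groups did. PDK1, the kinase that turns off pyruvate dehydrogenase, was at 109.6, 74.9 and 62.7 CPM in nuclease-SMARCA4 libraries, against 52.6, 67.9 and 58.01 CPM in nuclease-NT libraries. It was at 99.3, 67.1 and 70 CPM in YTHDF2-SMARCA4 libraries, against 42.65, 61.7 and 51.9 CPM in YTHDF2-NT libraries. For PDK1 it was the YTHDF2 groups that did not overlap. Averaged over the effectors the log2 fold changes were 0.60 ± 0.16 (SE) for PFKFB4, 0.53 ± 0.14 for PDK1 and 0.46 ± 0.14 for SLC2A1, with adjusted p values of 0.515, 0.515 and 0.523 by edgeR. PFKFB3, a relative of PFKFB4, had an average of 0.33 ± 0.11. PDK3, a related kinase of pyruvate dehydrogenase, had unlike guide comparisons: its log2 fold change was 0.43 ± 0.12 with the nuclease and -0.08 ± 0.11 with YTHDF2, and the difference of -0.52 ± 0.16 had an adjusted p of 0.38 by edgeR. SLC16A3 was between 0.3886 and 1.28 CPM in the 12 libraries, with groups that overlapped in both guide comparisons.

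On TMM-scaled counts the 17 glycolytic enzymes had a higher median with the nuclease than with YTHDF2, a difference that no single enzyme passed by edgeR with all 12 libraries. With the nuclease all 17 had a higher mean in SMARCA4-guide libraries, with log2 fold changes from 0.14 to 0.79 and a median of 0.28. The nuclease groups did not overlap for 15 of them (12.8% of all genes were higher without overlap). With YTHDF2, 9 of the 17 had a higher mean, and the median was 0. The YTHDF2 groups overlapped for all 17 (4.29% of all genes were higher without overlap and 4.98% lower). On deposited TPM the counts were closer: 16 of 17 were higher with the nuclease (median log2 ratio 0.13, against -0.12 for all genes, of which 29.9% were higher) and 15 of 17 with YTHDF2 (median 0.17, against 0.12 for all genes, of which 70.8% were higher). PGK1, which makes the first ATP of the pathway, was at 1203, 1030 and 909 CPM in nuclease-SMARCA4 libraries, against 774, 771 and 750.4 CPM in nuclease-NT libraries. It was at 1073, 846 and 882 CPM in YTHDF2-SMARCA4 libraries, against 878, 783 and 748 CPM in YTHDF2-NT libraries. The nuclease groups were apart and the NT libraries nearly equal, while YTHDF2-NT 1 lay within the range of YTHDF2-SMARCA4. LDHA, which makes lactate, was at 2443, 1885 and 1636 CPM in nuclease-SMARCA4 libraries, against 1308, 1575 and 1380 CPM in nuclease-NT libraries. It was at 2044, 1581 and 1626 CPM in YTHDF2-SMARCA4 libraries, against 1753, 1589 and 1525 CPM in YTHDF2-NT libraries. Again the groups overlapped with YTHDF2 alone. The average log2 fold change was 0.33 ± 0.08 (SE) for PGK1 and 0.30 ± 0.10 for LDHA, with adjusted p values of 0.515 and 0.523 by edgeR.

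GAPDH was at 3312, 3373 and 2854 CPM in nuclease-SMARCA4 libraries, against 2542, 2579 and 2542 CPM in nuclease-NT libraries. It was at 2740, 2451 and 2512 CPM in YTHDF2-SMARCA4 libraries, against 3255, 2353 and 2666 CPM in YTHDF2-NT libraries. YTHDF2-NT 1 alone of the YTHDF2 libraries lay within the range of the nuclease-SMARCA4 libraries. PKM, pyruvate kinase, was at 2050, 1876 and 1702 CPM in nuclease-SMARCA4 libraries, against 1569, 1647 and 1551 CPM in nuclease-NT libraries. It was at 1750, 1550 and 1602 CPM in YTHDF2-SMARCA4 libraries, against 2078, 1522 and 1623 CPM in YTHDF2-NT libraries, with YTHDF2-NT 1 the highest of all 12. LDHB, the lactate dehydrogenase subunit that HIF does not induce, was at 1695, 1713 and 1628 CPM in nuclease-SMARCA4 libraries, against 1513, 1504 and 1548 CPM in nuclease-NT libraries. It was at 1586, 1496 and 1588 CPM in YTHDF2-SMARCA4 libraries, against 2001, 1519 and 1670 CPM in YTHDF2-NT libraries. The nuclease groups did not overlap for any of the 3 genes, and the YTHDF2 groups overlapped for all 3. Log2 fold changes with the nuclease were 0.32 ± 0.10 (SE) for GAPDH, 0.24 ± 0.11 for PKM and 0.14 ± 0.09 for LDHB, and with YTHDF2 they were -0.10 ± 0.10, -0.09 ± 0.11 and -0.15 ± 0.09. GAPDH counts may also hold reads of its 62 pseudogenes, whose own counts came to 3.21% of GAPDH's.

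ALDOC, the brain-type aldolase, was the third enzyme by its unadjusted p in the average, at 21.7, 13.5 and 10.55 CPM in nuclease-SMARCA4 libraries, against 8.55, 9.58 and 8.30 CPM in nuclease-NT libraries. It was at 13.5, 10.7 and 8.26 CPM in YTHDF2-SMARCA4 libraries, against 11.1, 8.23 and 6.95 CPM in YTHDF2-NT libraries. Its average log2 fold change of 0.54 ± 0.18 (SE) had an adjusted p of 0.525 by edgeR, and it made up at most 1.07% of aldolase TPM beside ALDOA in the groups' libraries. HK2, the inducible hexokinase, was at 97.9, 64.1 and 54.03 CPM in nuclease-SMARCA4 libraries, against 49.04, 69.1 and 49.3 CPM in nuclease-NT libraries. It was at 117, 62.3 and 67.35 CPM in YTHDF2-SMARCA4 libraries, against 40.1, 71.1 and 56.7 CPM in YTHDF2-NT libraries. Library 1 of the SMARCA4 guide was highest with each effector, and the groups overlapped in both. The average log2 fold change was 0.46 ± 0.19 (SE) for HK2 and 0.09 ± 0.06 for HK1, the constitutive hexokinase, for which library 1 was also highest with each effector. The remaining enzymes, GPI, PFKL, PFKM, PFKP, ALDOA, TPI1, PGAM1, ENO1 and ENO2, had averages between 0.04 and 0.23.

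Shares within gene families are given for LDHA, HK2 and PFKP, whose mean share was larger with the SMARCA4 guide. Other HIF-inducible members had a smaller one: SLC2A1, the complement of SLC2A3, and PFKFB3, at 69.1% of PFKFB3 and PFKFB4 TPM in nuclease-SMARCA4 and 72.2% in nuclease-NT libraries, and 71.4% in YTHDF2-SMARCA4 and 73.4% in YTHDF2-NT libraries. LDHA made up 42.5 ± 4.64% of LDHA and LDHB TPM in nuclease-SMARCA4 libraries and 36.1 ± 2.55% in nuclease-NT libraries (SD, n = 3 each). It made up 41.9 ± 3.7% in YTHDF2-SMARCA4 libraries and 36.1 ± 5.28% in YTHDF2-NT libraries (SD, n = 3 each). The ranges did not overlap with the nuclease (39.5 to 47.8% against 33.6 to 38.7%) and overlapped with YTHDF2 (39.1 to 46.1% against 31.4 to 41.8%). HK2 made up 22.1 ± 4.12% of hexokinase TPM in nuclease-SMARCA4 libraries and 19.6 ± 3% in nuclease-NT libraries, and 26.1 ± 5.68% in YTHDF2-SMARCA4 libraries and 19.5 ± 4.26% in YTHDF2-NT libraries (SD, n = 3 each). Both HK2 comparisons overlapped. PFKP took 32.6 ± 6.17% of phosphofructokinase TPM in nuclease-SMARCA4 libraries and 27.4 ± 1.96% in nuclease-NT libraries, and 34.4 ± 2.51% in YTHDF2-SMARCA4 libraries and 33.3 ± 3.6% in YTHDF2-NT libraries (SD, n = 3 each). Both PFKP comparisons overlapped as well.

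**Figure D3:**
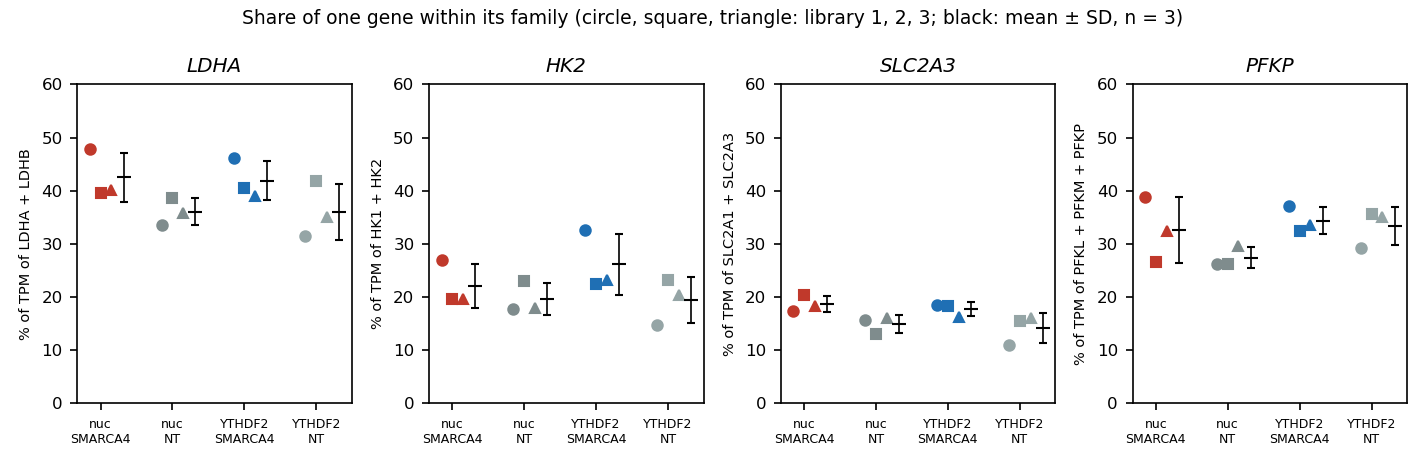
Share of LDHA, HK2, SLC2A3 and PFKP in the TPM of their families (per cent, y axis) in each library, with libraries 1, 2 and 3 as circle, square and triangle and the mean ± SD (n = 3) in black. Genes with a larger mean share under the SMARCA4 guide are shown, so the SMARCA4-guide means are higher for the same effector in all 4 panels. The points of the guides are fully apart for SLC2A3 with both effectors and for LDHA with the nuclease.

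For many of the genes the highest values lay in the same 2 libraries. Nuclease-SMARCA4 1 and YTHDF2-SMARCA4 1 were the highest pair of the 12 libraries for 20 of the 41 genes (48.8%), against 1.77% of all 16297 genes. This held for 9 of 11 HIF targets outside glycolysis, 5 of 7 transport and flux genes, 2 of 6 oxygen-sensing genes and 4 of 17 enzymes. Nuclease-SMARCA4 1 was the single highest library for 21 of the 41 genes and YTHDF2-SMARCA4 1 for 9, and neither was lowest for any. As a summary per library, the median deviation of the HIF targets from their 12-library mean was 0.38, 0.14 and -0.09 (log2) in nuclease-SMARCA4 libraries, against -0.28, -0.05 and -0.14 in nuclease-NT libraries. It was 0.52, 0.01 and 0.05 in YTHDF2-SMARCA4 libraries, against -0.28, -0.13 and -0.16 in YTHDF2-NT libraries. Nuclease-SMARCA4 3 lay below nuclease-NT 2, so the nuclease groups overlapped by this measure, while all 3 YTHDF2-SMARCA4 libraries lay above the YTHDF2-NT libraries. The pattern by library was seen in the data before it was counted, and the labels give no culture record by which these 2 libraries could be linked. They held the lowest firefly luciferase of their effector. Renilla luciferase was at 229, 248 and 334 CPM in nuclease-SMARCA4 libraries, against 424, 569 and 501 CPM in nuclease-NT libraries, and at 354, 481.5 and 451 CPM in YTHDF2-SMARCA4 libraries, against 297, 408 and 454 CPM in YTHDF2-NT libraries, so that with YTHDF2 its lowest library was YTHDF2-NT 1. The part of either reporter in the pattern was not tested.

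The enzymes followed another order of libraries. Their median deviation was 0.27, 0.18 and 0.02 (log2) in nuclease-SMARCA4 libraries, against -0.12, -0.09 and -0.11 in nuclease-NT libraries. It was 0.08, -0.11 and -0.10 in YTHDF2-SMARCA4 libraries, against 0.07, -0.15 and -0.09 in YTHDF2-NT libraries. Thus all 3 nuclease-SMARCA4 libraries lay above all 3 nuclease-NT libraries, and with YTHDF2 the libraries numbered 1 of either guide were high and the other 4 low. Without both SMARCA4-guide libraries numbered 1, a choice made after the data were seen, the HIF targets had medians of 0.17 with the nuclease (9 of 11 higher) and 0.23 with YTHDF2 (11 of 11 higher). The transport and flux genes then had 0.20 (6 of 7) and 0.32 (5 of 7). The enzymes had 0.19 (17 of 17) and -0.03 (3 of 17).

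**Figure D4:**
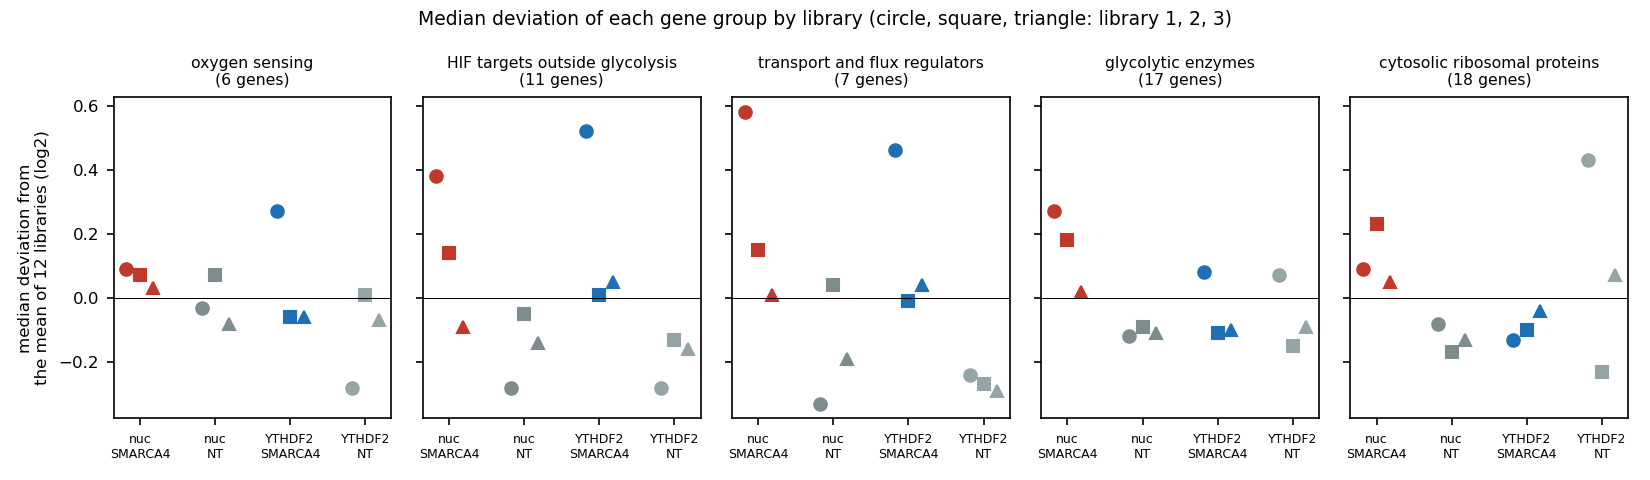
Median deviation (log2 CPM minus the mean over the 12 libraries) of the 4 roles and of 18 cytosolic ribosomal protein genes in each library, with libraries 1, 2 and 3 of a group as circle, square and triangle. The circles of both SMARCA4-guide groups are the highest points for the HIF targets and for the transport and flux genes, whereas for the ribosomal proteins the highest point is YTHDF2-NT 1.

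Both effectors were given the same guides, so the enzymes and the HIF targets could be compared by whether the guide difference was alike. For the 11 HIF targets the YTHDF2 log2 fold change minus the nuclease one had a median of 0, and 6 of 11 were higher with YTHDF2. For the 17 enzymes the median was -0.29, 16 of 17 were lower (49.4% of all genes were higher), and 6 of 17 had an unadjusted p below 0.05. Other lists had the same direction: of 7 pentose phosphate pathway genes 6 were lower (median -0.26), 4 of them at an unadjusted p below 0.05, and of 18 cytosolic ribosomal protein genes 18 were lower, 16 of them at that level. Over all 41 genes, 7 were lower at that level (5.93% of all genes) and 0 were higher (5.12%), and 0 passed the adjusted test by edgeR (0% of all genes; smallest adjusted p 0.38, for PDK3). Without YTHDF2-NT 2, 5 passed by edgeR, PDK3, TPI1, GAPDH, ENO1 and LDHB, all lower. In that fit 1444 of all genes passed, where 16297 were tested with all 12 libraries, a share close to that of the 41. GAPDH had a difference of -0.42 ± 0.15 (SE) and ENO1 of -0.42 ± 0.16, against -0.03 ± 0.30 for NDRG1 and 0.00 ± 0.36 for BHLHE40. Across genes, the log2 fold changes of the nuclease and YTHDF2 comparisons, which share no library, had a Pearson r of 0.82 for the 11 HIF targets, 0.58 for the 17 enzymes and 0.57 for all 41, against -0.08 for all 16297 genes. These describe genes that share libraries within each comparison and are not independent replicates. In both comparisons 27 of the 41 genes (65.9%) had a higher mean, against 21.1% of all genes.

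The 18 cytosolic ribosomal protein genes were short and abundant mRNAs taken as a companion. Their median log2 fold change was 0.26 with the nuclease (18 of 18 higher) and -0.19 with YTHDF2 (0 of 18 higher), a median difference of -0.46. The nuclease groups did not overlap for any of these 18 genes, so the separation was not particular to the enzymes. The YTHDF2 groups overlapped for all 18. The enzymes had a median transcript length of 2191 bases and 54.3% G and C, the HIF targets 2700 bases and 51.1%, the ribosomal proteins 722 bases and 52.5%, and all genes 2521 bases and 48.6%. When each library's trends on length and on G and C were removed, an alternative added after seeing the data, the ribosomal proteins' medians became 0.14 with the nuclease and -0.03 with YTHDF2. The enzymes' medians were then 0.23 (17 of 17 higher) and 0.03 (12 of 17 higher), with a difference of -0.21. The HIF targets' medians were 0.39 (11 of 11) and 0.33 (11 of 11), with a difference of -0.03. The part of length and base composition in what remained was not tested.

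**Figure D5:**
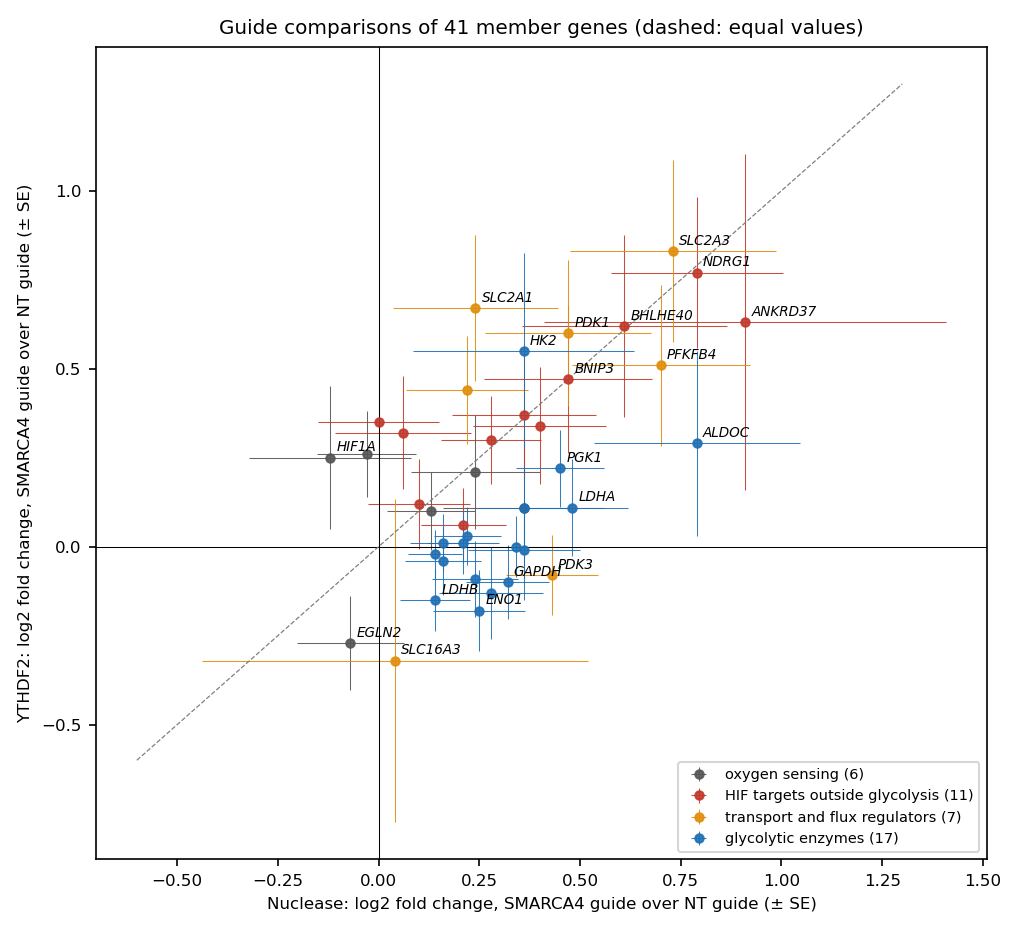
Log2 fold change of SMARCA4 guide over NT guide with the nuclease (x axis) and with YTHDF2 (y axis) for the 41 tested genes, coloured by role, with bars of 1 SE and a dashed line of equal values. NDRG1, SLC2A3, BHLHE40 and BNIP3 lie near the dashed line, while the enzymes form a cloud to the right of 0 on the x axis and around 0 on the y axis.

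Between effectors the genes differed little when the guide was non-targeting. In the YTHDF2-NT over nuclease-NT comparison 23 of 41 genes had a higher mean (51.3% of all genes), with a median log2 fold change of 0.01 against 0.01 for all genes. None of the 41 passed by edgeR (0.0491% of all genes did), and at an unadjusted p below 0.05 2 were higher (6.5% of all genes), PDK3 and ADM, and 0 were lower (4.39%). The groups did not overlap for 3 that were higher (6.86% of all genes) and for 0 that were lower (5.96%). Without YTHDF2-NT 2, 3 passed by edgeR (PDK3, ENO1 and LDHB). In that fit 1610 of all genes passed, where 16297 were tested with all 12 libraries, a share close to that of the 41. With the SMARCA4 guide, 12 of 41 had a higher mean in YTHDF2-SMARCA4 than in nuclease-SMARCA4 libraries (50.1% of all genes), with a median of -0.12 against 0, and 0 passed (0.00614%). At an unadjusted p below 0.05 2 were higher (5.93% of all genes), ADM and VHL, and 4 were lower (5.52%), all of them enzymes: PFKL, PFKM, PFKP and GAPDH. The groups did not overlap for 2 that were higher (13.4% of all genes) and for 6 that were lower (13.4%). ADM was at 15.2, 13.8 and 11.73 CPM in YTHDF2-SMARCA4 libraries, against 9.41, 8.31 and 8.44 CPM in nuclease-SMARCA4 libraries, and the groups did not overlap. In a fit of the 6 SMARCA4-guide libraries alone 5 of the 41 passed by edgeR (4.25% of 15542 genes), of which VHL and ADM rose and PFKL, TPI1 and GAPDH fell. Effector and any batch that went with it cannot be told apart here.

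Genes near the pathway that are not among the 42 were mostly higher with the SMARCA4 guide where hypoxia induces them, and evenly divided where they control HIF. Of 31 tested further hypoxia-induced genes, 26 had a higher mean with the nuclease (median log2 fold change 0.20) and 30 with YTHDF2 (median 0.17), and 0 passed by edgeR in either comparison. The 3 with the smallest unadjusted p in the average were NRN1, a neuritin, LOX, the collagen-crosslinking lysyl oxidase, and HILPDA, a lipid droplet protein. HILPDA was at 72.1, 50.9 and 41.7 CPM in nuclease-SMARCA4 libraries, against 37.2, 41.5 and 38.5 CPM in nuclease-NT libraries. It was at 75.8, 46.3 and 51.5 CPM in YTHDF2-SMARCA4 libraries, against 46.2, 41.4 and 36.1 CPM in YTHDF2-NT libraries, with library 1 again the highest of each SMARCA4-guide group. LOX and NRN1 had average log2 fold changes of 0.58 and 0.42, and those of the 3 genes had an adjusted p of 0.515 each by edgeR. Of 12 tested genes of HIF control other than the 6 above, 7 had a higher mean with each effector and the medians were 0.05 and 0.05. HIF1AN, the asparaginyl hydroxylase that blocks HIF's transactivation, was at 66.9, 64.4 and 65.5 CPM in nuclease-SMARCA4 libraries, against 69.6, 69.9 and 71.1 CPM in nuclease-NT libraries. It was at 56.3, 58.9 and 58.3 CPM in YTHDF2-SMARCA4 libraries, against 73.6, 73.3 and 63 CPM in YTHDF2-NT libraries. The SMARCA4-guide libraries were lower than the NT libraries without overlap in both comparisons, but the average log2 fold change of -0.19 did not pass (adjusted p = 0.515, edgeR). CITED2, a HIF-induced inhibitor of HIF, had an average of 0.19 and CUL2, a part of the VHL ligase, of 0.07.

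The gene-level values were also looked at by transcript model, since the gene sums join models that encode different isoforms. Of the 41 genes' models, 177 of 49518 tested transcripts could be fitted, and 0 passed in any of the 6 comparisons by edgeR, where between 0.00202% and 0.00808% of all transcripts did. In the average guide effect 126 of the 177 (71.2%) had a higher mean, against 50.8% of all tested transcripts.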

How the data were processed

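Estimated counts and TPM values were deposited by the authors per transcript and library, with the lengths, per the file headers. The submitters' processing notes name kallisto, sleuth and hg38; versions, annotation release and strand setting are not given in the sources used here. Each of the 4 groups had 3 libraries, and no 2 libraries held identical values. The estimated counts were summed per gene ID over 58288 genes and rounded to whole numbers, and TPM, which scales for depth and length, was summed per gene. Genes with low counts were removed by filterByExpr, leaving 16297, and tested by edgeR 4.0.16 (R 4.3.3) with TMM scaling and quasi-likelihood tests on 4 group means over all 12 libraries (8 residual degrees of freedom). P-values were adjusted by Benjamini-Hochberg over all tested genes, with 0.05 as the threshold. The 6 comparisons were SMARCA4 over NT guide for each effector, their average and their difference, and YTHDF2 over nuclease for each guide.

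Of the 42 genes, CA9 was removed by the filter. Values per library are given for the 3 genes of each role with the smallest unadjusted p in the average guide effect, for called genes and for a fixed set of well-known members; for other lists, the 3 genes with the smallest such p are named, except 1 that is not reported here. BNIP3, HK2 and ADM were added after their values were seen. The 42 genes, the roles and the other lists were chosen with earlier results of these data known. Alternatives were DESeq2 1.42.0 (test and size factors), limma-voom (limma 3.58.1), no filter on low counts, a replicate block, fits of 6 libraries, removal of trends on length and GC content, deposited TPM, and leaving out libraries. The fits were tested on simulated data. Depth was 9207196 to 18047859 estimated counts per library.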

Additional observations from a re-analysis of the deposited data

How the results depend on the processing

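The direction of the median over the 41 genes, and the lack of a passing gene, held in the guide comparisons with DESeq2 size factors, limma-voom and the removal of length trends. DESeq2's own test passed 3 of the 41 genes with the nuclease and 2 in the average, and over all genes 142 (nuclease), 3 (YTHDF2), 19 (average), 38 (difference), 93 (effectors, NT guide) and 102 (effectors, SMARCA4 guide), against 1, 0, 0, 0, 8 and 1 by edgeR. With no filter on low counts, in the same order, 14, 9, 15, 2, 1 and 4 of the 42 genes passed and 333, 214, 224, 493, 360 and 296 of all genes; the cause was not tested.

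The replicate numbers did not pair the libraries: same-numbered libraries of a comparison had deviations whose correlation over all genes lay between -0.05 and 0.05. Over the 41 genes it lay between -0.53 and 0.43, except 0.70 for the SMARCA4-guide libraries numbered 1. Unlike-numbered SMARCA4-guide libraries of the 2 effectors also reached 0.65, for YTHDF2-SMARCA4 3 with nuclease-SMARCA4 2. They went down to -0.60, for YTHDF2-SMARCA4 2 with nuclease-SMARCA4 1. With the replicate block, 0 of the 41 genes passed in every comparison, and over all genes 2 (nuclease), 0 (YTHDF2), 1 (average), 1 (difference), 4 (effectors, NT guide) and 3 (effectors, SMARCA4 guide).

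Fits of the 6 libraries compared passed 11 of the 41 genes and 550 of all genes with the nuclease, and 5 and 660 between effectors with the SMARCA4 guide. Within the 6 nuclease libraries, the replicate block gave 7 and 279, removal of length and GC trends 9 and 494, and leaving out nuclease-SMARCA4 1 gave 1 and 4. Over 12 libraries, removing the length trend gave 41 genes (nuclease), 3 (difference), 17 (effectors, NT guide) and 35 (effectors, SMARCA4 guide), and removing length and GC trends 128, 7, 27 and 10. Leaving out both SMARCA4-guide libraries numbered 1 gave 0 genes with the nuclease and 2 between effectors with the NT guide. Leaving out YTHDF2-NT 1 and 2 gave 10 of the 41 and 706 genes (nuclease), 2 genes (average), 121 (difference), 32 (effectors, NT guide), and 6 of the 41 and 714 genes (effectors, SMARCA4 guide). Of these settings, all but the plain fits of 6 libraries and the length trend were added after seeing the data. With deposited TPM, the median of the 41 genes was 0.30 for the YTHDF2 guide comparison, against 0.12 for all genes. Between effectors with the NT guide it was -0.15, against -0.17 for all genes.

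Leaving out each library in turn gave 0 to 44 genes of all with the nuclease, 0 to 1585 with YTHDF2, 0 to 48 in the average, 0 to 1444 in the difference, 1 to 1610 between effectors with the NT guide and 1 to 70 with the SMARCA4 guide. Of the 41 genes it passed 0 to 5 with YTHDF2, 0 to 5 in the difference, 0 to 3 between effectors with the NT guide and 0 elsewhere, the highest each time without YTHDF2-NT 2. The medians ranged over 0.17 to 0.37, 0.07 to 0.24, 0.14 to 0.23, -0.24 to -0.05, -0.02 to 0.06 and -0.23 to 0.02. With 3 libraries per group, the design cannot give an exact permutation p under 0.1 for 1 gene, and CA9, ANKRD37 and SLC16A3 were limited by depth.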

Other observations

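Of 7 pentose phosphate pathway genes, 6 had a higher mean in nuclease-SMARCA4 than in nuclease-NT libraries (median log2 fold change 0.11) and 1 in YTHDF2-SMARCA4 than in YTHDF2-NT libraries (median -0.13). The 3 with the smallest unadjusted p in the average, RPE, TKT and RPIA, had averages of 0.06, 0.05 and -0.07. Of 26 genes of pyruvate entry and the TCA cycle, 22 had a higher mean with the nuclease (median 0.06) and 12 with YTHDF2 (median -0.01). PDP2, a phosphatase that activates pyruvate dehydrogenase and so opposes PDK1, had an average of -0.18, and SUCLG2, a succinate-CoA ligase subunit, of 0.11. Of 10 tested side-branch genes and minor isoforms of glycolysis, 5 were higher with the nuclease (median -0.01) and 8 with YTHDF2 (median 0.04). PGM1 and PGM2, phosphoglucomutases, and ADPGK, the ADP-dependent glucokinase, had averages of 0.17, 0.13 and 0.10. None of these genes passed by edgeR in either guide comparison.

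Of the 8 fibroblast markers 4 could be tested. In the average guide effect 2 of these rose and 2 fell, and the middle of their log2 values was 0.05. PDGFRA had the smallest unadjusted p, with an average log2 fold change of 0.72 and an adjusted p of 0.523 by edgeR. PDGFRA rested on few reads, at 0.525 to 1.46 CPM in the 12 libraries.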
